A study of Mus musculus with 4 samples.

Results

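Enzymes of amino acid breakdown in the mouse kidney were followed as a set of 37 genes, taken by symbol from the 29190 genes of the deposited count table. All 37 had 1 row each, and all 37 were among the 17419 genes kept by the filter on low counts. The cisplatin group was kidney tissue of 8-week-old male C57 mice given cisplatin by injection, a platinum drug that binds DNA and is toxic to the tubules, at 30 mg/kg. The saline group, the control, was kidney tissue of mice of the same kind given physiological saline. Each group had 2 RNA libraries, described in the design text as biological replicates. The study used 18 mice in 3 groups, killed 24 h or 48 h after cisplatin where they received it, and the sources used here do not say which of these times the cisplatin libraries represent, nor whether a library holds 1 animal or a pool.

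Amino acids are broken down by transamination or oxidation of the amino group. The carbon skeleton is then broken down, largely in mitochondria, to products that can feed the citric acid cycle. The proximal tubule, the segment that reclaims filtered amino acids, is rich in many of these enzymes. It also turns citrulline into arginine for the rest of the body and makes guanidinoacetate, the precursor from which the liver makes creatine. The 37 genes cover the breakdown of tyrosine, proline, lysine, branched-chain amino acids, sulfur amino acids and glycine. A few have other main roles, among them Gatm and the arginine-making enzymes Ass1 and Asl. Miox, which opens the ring of myo-inositol, acts on no amino acid.

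The libraries held between 20662475 and 27122403 counts. Levels are given as CPM, the counts of a gene relative to the size of its library after scaling by the trimmed mean of M values (TMM). Across genes, log2 CPM had r = 0.993 between the cisplatin libraries and r = 0.992 between the saline libraries. With edgeR's quasi-likelihood test and Benjamini-Hochberg adjustment, 73.6% of all tested genes were called at an adjusted p under 0.05, 36.4% lower and 37.2% higher after cisplatin. Kidney markers were present in both groups. Lrp2, the proximal tubule receptor megalin, had 1256 and 1196 CPM in cisplatin libraries against 8997 and 9232 CPM in saline libraries. Alb, 1 of 8 liver markers, had 2.57 and 2.08 CPM against 5.63 and 8.11 CPM. Other liver markers stood higher, and their sum is given with the other marker lists.

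Transcripts of amino acid breakdown were lower after cisplatin in nearly every member. Of the 37 genes, 36 were called lower, beside 36.4% of all tested genes, and 1, Arg2, was called higher, beside 37.2%. At least a 2-fold fall was found in 32 members, beside 16.1% of all tested genes, and a log2 fold change of -2 or less in 13, beside 5.02%. The median log2 fold change, cisplatin over saline, was -1.59 over the members and 0.04 over all tested genes. Together the members took 0.377% and 0.363% of the counts of the cisplatin libraries, against 1.03% and 1.11% of the saline libraries. The weakest of the 36 calls was Acad8, whose direction depended on the scaling and is described with the valine enzymes. In all 37 members the groups did not overlap on the CPM scale, as in 86.3% of all tested genes. In bulk tissue, fewer cells of a type and less RNA per cell cannot be told apart, which applies to every value given here.

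**Figure D1:**
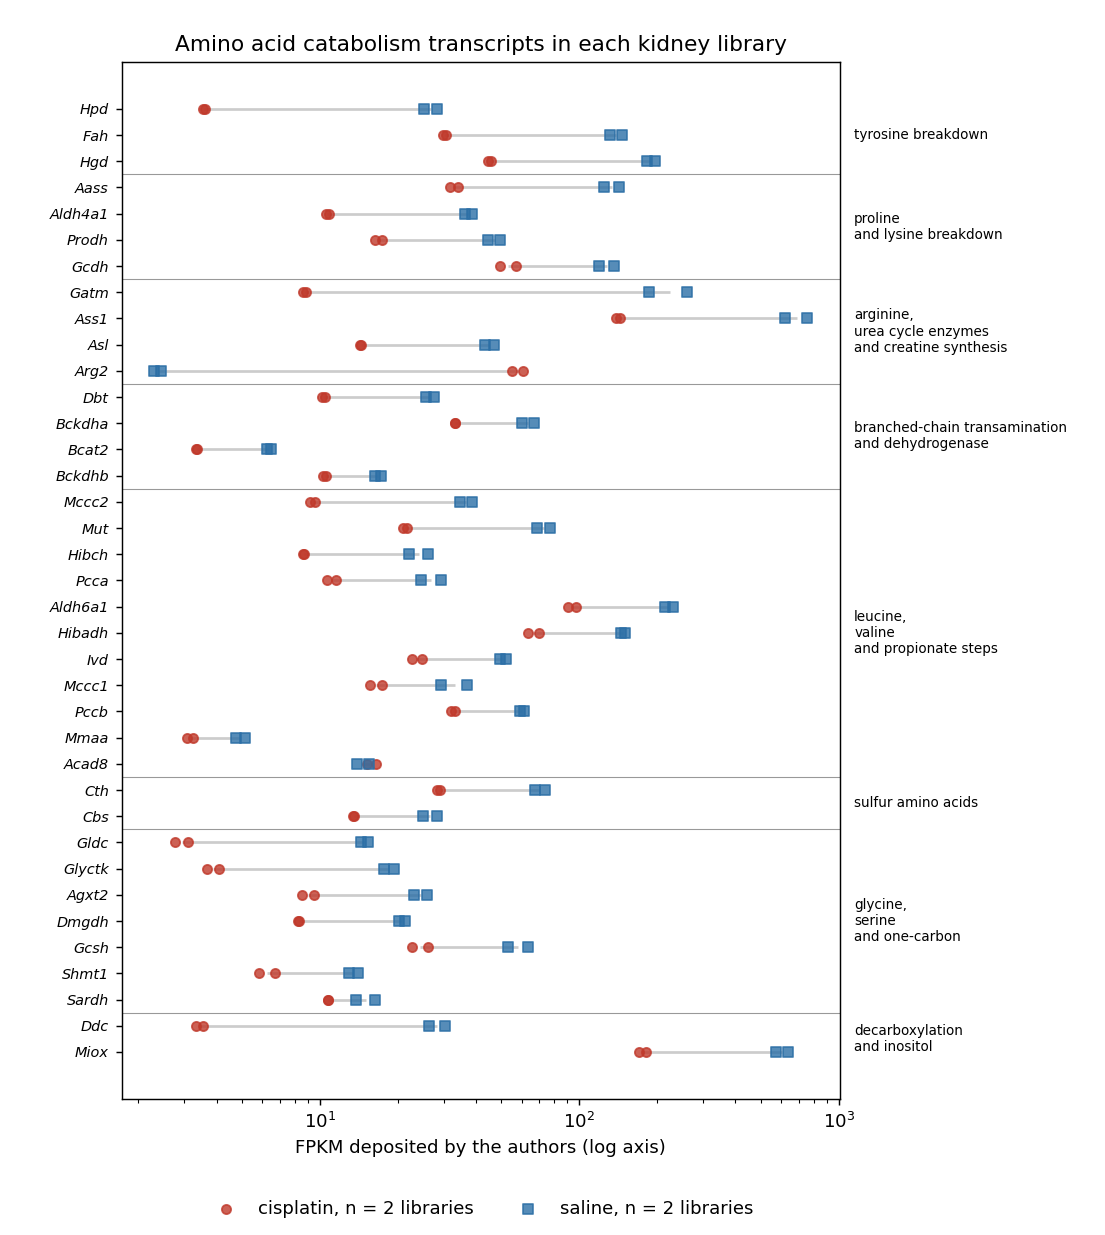
FPKM (fragments relative to transcript length and library size, log axis) of the 37 genes in the 2 cisplatin libraries (red circles) and the 2 saline libraries (blue squares), grouped by pathway; grey lines join the group means. Arg2 lies higher after cisplatin (60.5 and 55.2 against 2.45 and 2.30 FPKM), Acad8 overlaps between the groups on this scale, and the other genes lie lower.

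Because the members moved together, their promoters were searched for the motifs of HNF4A and HNF1, transcription factors that drive proximal tubule genes. Of the 37 genes, 32 had promoters in the RefSeq table for GRCm38.p6, each of 300 bases from 250 before to 50 after a start, and Arg2, Asl, Cth, Dbt and Mut had none there. The HNF4A motif CAAAGTCCA, with at most 1 mismatch and on either strand, was found in 3 of 32 members (9.38%: Agxt2, Glyctk and Hgd) and in 9.64% of 27025 genes of the table. The HNF1 motif GTTAATNAT, under the same rule, was found in 4 of 32 members (12.5%: Aldh6a1, Bckdhb, Ddc and Glyctk) and in 15% of all genes of the table. With 1 mismatch allowed, neither share exceeded that of all genes in the table. Any gene with more than 1 start was counted if any of its promoters matched. In Aldh6a1 and Bckdhb the match lay only in the promoter of a start within the gene, not in that at the gene's beginning. Exact matches were found in 1 of 32 members for each motif (3.12%), beside 0.555% of all genes for HNF4A and 0.940% for HNF1. A match, or its absence, describes the letters of these windows only. The promoters of Agxt2 (chr15:10358283-10358582, plus strand), Glyctk (chr9:106158089-106158388, minus strand) and Gatm (chr2:122611228-122611527, minus strand) are shown 5′ to 3′, with motif matches in capitals. Agxt2 is the member with an exact HNF4A match, whose first base lies 21 bases before the start shown, beside an inexact match 86 bases before it. Glyctk has an exact HNF1 match 60 bases before the start, read on the reverse strand, and an inexact HNF4A match at the start. Gatm, the member with the deepest fall, has neither.
Agxt2: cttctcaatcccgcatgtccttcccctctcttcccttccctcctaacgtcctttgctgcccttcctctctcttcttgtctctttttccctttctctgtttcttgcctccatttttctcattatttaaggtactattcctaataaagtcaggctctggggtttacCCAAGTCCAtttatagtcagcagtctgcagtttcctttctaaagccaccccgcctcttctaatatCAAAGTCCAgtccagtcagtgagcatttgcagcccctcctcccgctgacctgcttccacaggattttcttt
Glyctk: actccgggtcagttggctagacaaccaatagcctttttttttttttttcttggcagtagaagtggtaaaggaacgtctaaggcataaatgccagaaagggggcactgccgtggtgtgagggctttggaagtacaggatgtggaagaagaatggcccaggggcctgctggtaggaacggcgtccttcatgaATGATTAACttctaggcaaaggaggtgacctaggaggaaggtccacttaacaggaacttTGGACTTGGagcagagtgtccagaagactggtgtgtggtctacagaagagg
Gatm: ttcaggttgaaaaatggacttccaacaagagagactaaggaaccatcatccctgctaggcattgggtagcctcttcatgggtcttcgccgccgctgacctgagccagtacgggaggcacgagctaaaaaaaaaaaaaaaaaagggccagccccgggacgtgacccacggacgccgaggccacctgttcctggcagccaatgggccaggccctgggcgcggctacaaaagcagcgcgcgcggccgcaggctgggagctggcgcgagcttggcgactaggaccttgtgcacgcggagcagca

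The genes that use or make arginine held both extremes of the set. Gatm (ENSMUSG00000027199.12, chromosome 2, 122594467 to 122611303, minus strand, GRCm38) encodes the amidinotransferase that joins arginine and glycine into guanidinoacetate. It had 29.5 and 30.9 CPM in cisplatin libraries against 812 and 1032 CPM in saline libraries. Both cisplatin libraries lay far below both saline libraries, a 30.5-fold fall with a log2 fold change of -4.93 (SE 0.10, adjusted p = 4.72e-19). Its log2 fold change stood 22nd from the lowest among all 17419 tested genes. By FPKM, which allows levels of different genes to be compared, Gatm ranked 28th of the 37 members in cisplatin libraries and 3rd in saline libraries.

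Arg2 (ENSMUSG00000021125.6, chromosome 12, 79130777 to 79156301, plus strand) encodes the mitochondrial arginase, which splits arginine into ornithine and urea. It had 123.6 and 114.9 CPM in cisplatin libraries against 6.39 and 5.45 CPM in saline libraries. The rise was 20.3-fold, with a log2 fold change of 4.34 (SE 0.09, adjusted p = 5.16e-19), and the groups were far apart. The saline level rested on 118 and 133 counts. By FPKM, Arg2 ranked 5th of the 37 members in cisplatin libraries and last, 37th, in saline libraries. A gene on the opposite strand, Vti1b, overlaps Arg2, with 1262 and 1426 counts after cisplatin against 1341 and 1890 after saline. Whether counting used strand is not given, and the log2 fold change of Vti1b was -0.47, opposite in sign to that of Arg2.

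Transcripts of both enzymes that make arginine from citrulline fell. Ass1, argininosuccinate synthase, was the most abundant member per length in saline libraries. Its FPKM was 139 and 143 in cisplatin libraries against 622 and 756 in saline libraries. On the count scale it fell 5.87-fold, with a log2 fold change of -2.55 (SE 0.06, adjusted p = 8.15e-18). Asl, the lyase that releases arginine, had 61.2 and 62.9 CPM in cisplatin libraries against 236 and 232 CPM in saline libraries, a 3.77-fold fall. Ass1 held 10.2% and 10.9% of all member counts after cisplatin, against 16.0% and 17.2% after saline, whereas Arg2 held 3.76% and 3.55%, against 0.0531% and 0.0441%.

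Transcripts of all 3 enzymes of tyrosine breakdown in the set fell, with a median log2 fold change of -2.46. Hpd, the dioxygenase that makes homogentisate, had 7.13 and 7.40 CPM in cisplatin libraries against 64.9 and 66.0 CPM in saline libraries. Its log2 fold change was the third lowest of the set (-3.17, SE 0.09, adjusted p = 5.93e-17). Psmd9, on the opposite strand, overlaps Hpd and had 570 and 567 counts after cisplatin against 533 and 611 after saline. Hpd itself had 169 and 192 counts against 1200 and 1610. Reads of the overlap cannot be assigned if counting ignored strand, which also bears on the ratios to Hpd given below. Hgd, which opens the ring of homogentisate, had 111.7 and 110.1 CPM against 567 and 553 CPM, a 5.05-fold fall. Fah, the hydrolase of the last step, had 62.6 and 65.8 CPM against 353 and 355 CPM, a 5.51-fold fall. In each of these 3 members the replicates of a group lay close together compared with the distance between the groups.

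Ddc and Miox fell as well. Ddc (ENSMUSG00000020182.14, chromosome 11, 11814101 to 11898144, minus strand) encodes the decarboxylase of aromatic amino acids, which makes dopamine in the proximal tubule. It had 10.7 and 10.2 CPM in cisplatin libraries against 100.6 and 105 CPM in saline libraries, a 9.88-fold fall (log2 fold change -3.31, SE 0.07, adjusted p = 2.45e-18). Miox, the oxygenase of myo-inositol, had 275 and 298.5 CPM in cisplatin libraries against 1181 and 1200.1 CPM in saline libraries, a 4.15-fold fall. Despite that fall, Miox had the highest FPKM of the set after cisplatin, with 170.35 and 181 FPKM against 572 and 640.02 FPKM after saline.

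Transcripts of the 4 enzymes of proline and lysine breakdown fell between 2.89-fold and 4.87-fold. Prodh, which starts proline oxidation, had 70.8 and 67.7 CPM in cisplatin libraries against 232 and 234.5 CPM in saline libraries, a 3.37-fold fall. Dgcr6, on the opposite strand of Prodh, had 359 and 422 counts after cisplatin against 791 and 934 after saline. Aldh4a1, which completes the conversion of proline to glutamate, had 52.3 and 52.1 CPM against 224.5 and 216 CPM, a 4.22-fold fall. A second gene model, Gm21969, overlaps Aldh4a1 on the same strand, so reads of the locus may be divided between the rows. Gm21969 had 1117 and 1258 counts after cisplatin against 4791 and 5465 after saline, with a log2 fold change of -2.34, near the -2.08 of Aldh4a1. Aass, the bifunctional enzyme that opens lysine degradation, had 180.0 and 172 CPM in cisplatin libraries against 841 and 873 CPM in saline libraries, the deepest fall of this pathway at 4.87-fold. Gcdh, the dehydrogenase of glutaryl-CoA further along, had 177 and 157 CPM against 473 and 491 CPM, the shallowest at 2.89-fold.

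The 4 genes of the shared first steps of branched-chain amino acid breakdown fell between 1.93-fold and 3.11-fold. Bcat2, the mitochondrial transaminase, had 12.0 and 12.1 CPM in cisplatin libraries against 28.4 and 26.8 CPM in saline libraries, a 2.29-fold fall. Bckdha and Bckdhb encode the decarboxylase subunits of the branched-chain ketoacid dehydrogenase, and Dbt its transacylase core. Bckdha had 84.1 and 85.5 CPM against 194.6 and 197 CPM, a 2.31-fold fall. Bckdhb had 24.4 and 24.2 CPM against 48.0 and 46.0 CPM, a 1.93-fold fall. Dbt had 49.5 and 49.2 CPM against 155 and 151.5 CPM, a 3.11-fold fall. The median log2 fold change of these 4 genes was -1.20, beside -1.59 over the set, with Dbt at -1.63, and the difference of the medians was not tested.

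**Figure D2:**
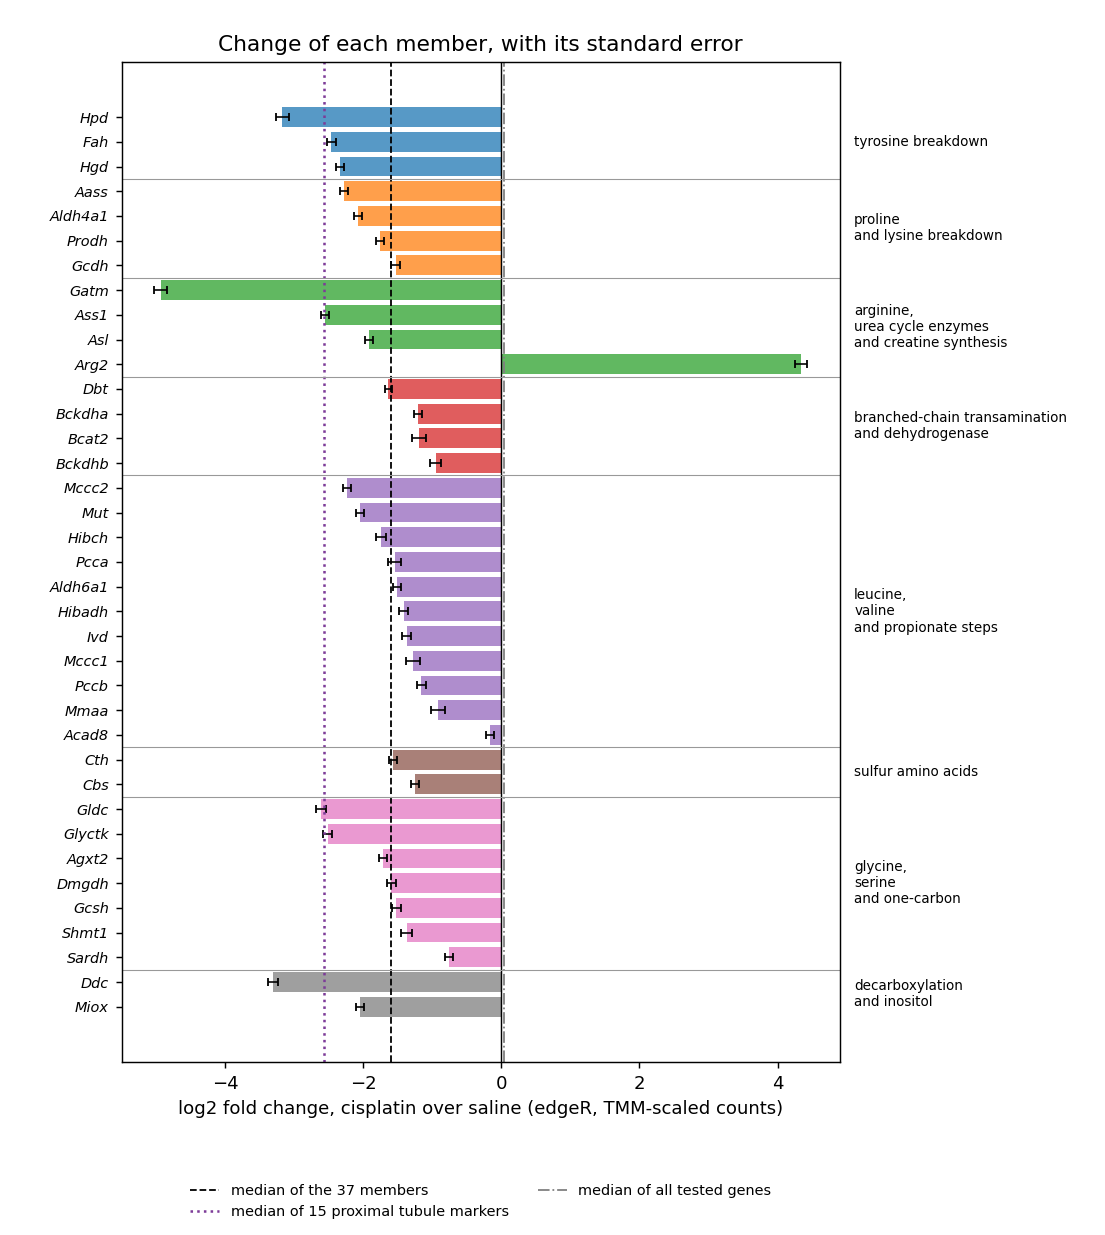
Log2 fold change (cisplatin over saline) of each member from edgeR on TMM-scaled counts, with its standard error, ordered within pathways (colours). Lines mark the medians of the members (-1.59), of 15 proximal tubule markers (-2.57) and of all tested genes (0.04); Gatm (-4.93) and Arg2 (4.34) lie farthest from the rest.

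Leucine is then carried on by Ivd, isovaleryl-CoA dehydrogenase, and by methylcrotonyl-CoA carboxylase, made of Mccc1 and Mccc2. Ivd had 129 and 121 CPM in cisplatin libraries against 331 and 318 CPM in saline libraries, a 2.59-fold fall. Mccc2, the beta subunit, had 29.1 and 28.4 CPM against 134 and 136 CPM, a 4.70-fold fall. Mccc1, the biotin-carrying alpha subunit, had 61.2 and 55.9 CPM against 165.5 and 119.9 CPM, a 2.43-fold fall. The saline libraries differed more in Mccc1 than in any other member, with a coefficient of variation of 22.6% beside a median of 2.54% over the set. Leaving out saline replicate 1 or 2 moved the log2 fold change of Mccc1 to -1.05 or -1.50, from -1.28 with all libraries, and the gene was called either way.

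Valine breakdown holds the member with the smallest change. Acad8, isobutyryl-CoA dehydrogenase, which takes the valine-derived acyl-CoA, had 68.0 and 63.7 CPM in cisplatin libraries against 73.3 and 74.1 CPM in saline libraries. Its log2 fold change was -0.16 (SE 0.06, adjusted p = 0.0174), but it was 0.20 (adjusted p = 0.0118) with library size alone, and by FPKM the groups overlapped at 16.4 and 15.2 against 13.9 and 15.5. Over all tested genes, library size alone moved the median log2 fold change to 0.41, against 0.04 with TMM. Acad8 is therefore reported with no direction. Transcripts of the later valine enzymes fell. Hibch, the hydrolase, had 23.0 and 23.6 CPM against 75.3 and 80.8 CPM, a 3.35-fold fall. Hibadh, the dehydrogenase after it, had 183 and 169 CPM against 481 and 456 CPM, a 2.66-fold fall. Aldh6a1, which makes propionyl-CoA from valine, is abundant in the kidney and had 462 and 440 CPM against 1300 and 1278 CPM, a 2.86-fold fall.

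Propionyl-CoA, the common end product of several of these routes, enters the citric acid cycle through propionyl-CoA carboxylase and methylmalonyl-CoA mutase. Pcca, the alpha subunit of the carboxylase, had 39.7 and 43.5 CPM in cisplatin libraries against 138 and 106 CPM in saline libraries, a 2.92-fold fall whose log2 value ranged from -1.74 to -1.36 when 1 library was left out. Ggact, on the opposite strand of Pcca, had 718 and 765 counts after cisplatin against 1612 and 2431 after saline. Pccb, the beta subunit, had 106 and 112 CPM against 251 and 236 CPM, a 2.23-fold fall. Mut, the mutase, had 113.7 and 111.9 CPM against 460.5 and 472 CPM, a 4.13-fold fall. Mmaa, a chaperone that helps load the mutase with its vitamin B12 cofactor, had 12.6 and 13.4 CPM against 24.7 and 24.3 CPM, a 1.88-fold fall.

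Cbs and Cth pass sulfur from homocysteine to cysteine. Cbs, cystathionine beta-synthase, had 48.2 and 49.2 CPM in cisplatin libraries against 114 and 117 CPM in saline libraries, a 2.38-fold fall. Cth, cystathionine gamma-lyase, had 75.6 and 74.8 CPM against 224 and 223 CPM, a 2.97-fold fall.

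All 7 members that handle glycine, serine and methylated glycines fell, with a median log2 fold change of -1.59. Gldc, the decarboxylase of the mitochondrial glycine cleavage system, had 16.7 and 15.1 CPM in cisplatin libraries against 99.1 and 95.6 CPM in saline libraries, a 6.13-fold fall (log2 fold change -2.62, SE 0.07, adjusted p = 5.10e-17). Gcsh, the lipoyl carrier protein of the same system, had 54.0 and 47.7 CPM against 140 and 152 CPM, a 2.87-fold fall. Glyctk, the glycerate kinase whose promoter held matches to both motifs, had 22.3 and 25.1 CPM against 136 and 135 CPM, a 5.72-fold fall. Agxt2, an aminotransferase that uses glyoxylate and also degrades dimethylarginine, had 42.8 and 39.4 CPM against 133.5 and 136 CPM, a 3.28-fold fall.

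Dmgdh and Sardh act in series, removing methyl groups from dimethylglycine and sarcosine, and did not fall to the same extent. Dmgdh had 35.2 and 36.4 CPM in cisplatin libraries against 110.1 and 105.8 CPM in saline libraries, a 3.01-fold fall. Sardh had 69.8 and 70.7 CPM against 114 and 122.5 CPM, a 1.69-fold fall (log2 fold change -0.75, SE 0.06, adjusted p = 3.00e-10), the smallest among members that kept their direction under every scaling. Shmt1, the cytosolic enzyme that converts serine and glycine into each other, had 27.4 and 24.3 CPM against 67.4 and 66.5 CPM, a 2.59-fold fall. On the opposite strand of Shmt1 lies Smcr8, which had 4517 and 5188 counts after cisplatin against 1581 and 1765 after saline, and reads of the overlap cannot be assigned if counting ignored strand.

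Partners in a complex or a route were compared within each library as a ratio of FPKM, in 10 pairs. The ratio of Mccc2 to Mccc1 was 0.55 and 0.587 in cisplatin libraries against 0.937 and 1.31 in saline libraries. The ratio of Gcsh to Gldc was 8.41 and 8.22 against 3.66 and 4.14, 2.14-fold higher after cisplatin from counts, the largest shift of the 10. The ratio of Dmgdh to Sardh was 0.763 and 0.777 against 1.46 and 1.31. None of the 10 ratios overlapped between the groups. Among single genes, 86.3% of all tested genes did not overlap, and the share over other pairs of genes was not computed. The dehydrogenase pairs shifted less. Bckdhb to Bckdha stood at 0.318 and 0.311 against 0.271 and 0.256, and Dbt to Bckdha at 0.316 and 0.309 against 0.428 and 0.412.

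In the tyrosine route, Hgd to Hpd was 12.9 and 12.3 in cisplatin libraries against 7.21 and 6.92 in saline libraries, and Fah to Hpd was 8.39 and 8.49 against 5.19 and 5.14. Asl to Ass1 was 0.103 and 0.101 against 0.0695 and 0.0621. The subunit ratio of Pccb to Pcca was 2.98 and 2.89 against 2.03 and 2.50, and Cth to Cbs was 2.16 and 2.09 against 2.70 and 2.62. With 2 libraries against 2, an exact two-sided permutation test cannot go below p = 0.33. Each of the 10 ratios gave that p, before and after adjustment over the 10, so none could pass the threshold.

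**Figure D3:**
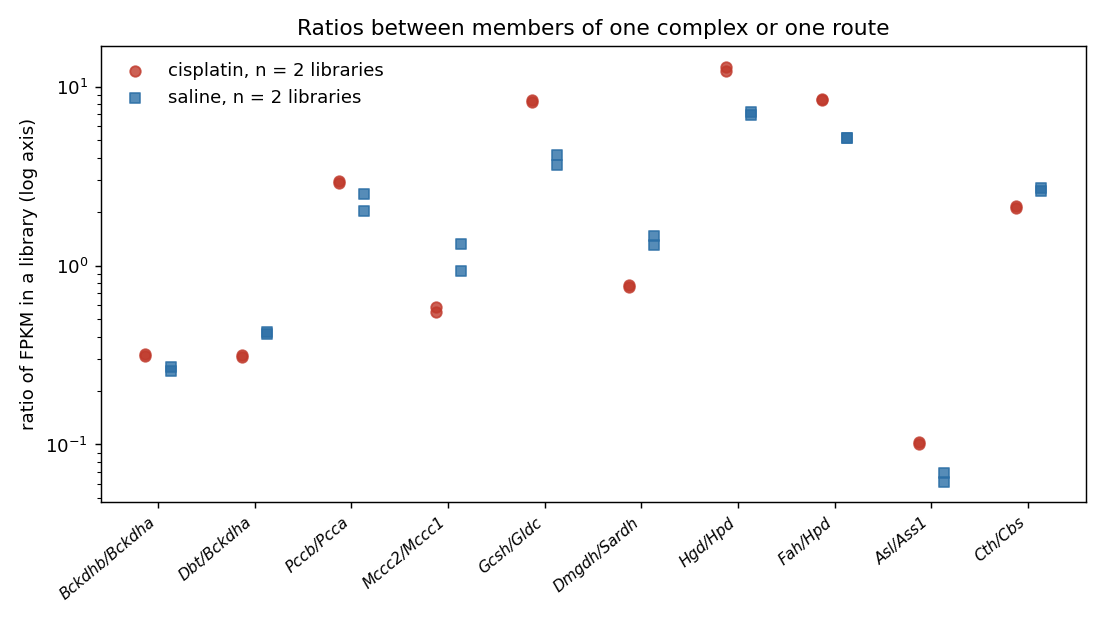
Ratio of FPKM of member pairs in each library (log axis), in cisplatin libraries (red circles) and saline libraries (blue squares). Gcsh to Gldc shifted most, with 8.41 and 8.22 against 3.66 and 4.14; n = 2 libraries per group, so no pair can reach p under 0.05.

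Other genes of amino acid metabolism, 90 in a list chosen by function, showed a similar direction. Of these, 86 were in the table under their symbol and 77 were tested. Among the tested genes, 69 were called lower and 4 higher, beside 36.4% and 37.2% of all tested genes, and 4 missed the threshold. Their median log2 fold change was -1.31. The lowest log2 fold change of the list, -4.06 (SE 0.26), was that of Bhmt, a homocysteine methyltransferase named after its values were seen, with 0.590 and 0.347 CPM in cisplatin libraries against 7.68 and 7.95 CPM in saline libraries. The next named falls are the 5 deepest where the mean reached 5 CPM. Kynu, the kynureninase of tryptophan breakdown, had 1.43 and 1.58 CPM in cisplatin libraries against 23.3 and 24.5 CPM in saline libraries (log2 fold change -3.98, SE 0.15). Haao, which acts after it, had 23.7 and 23.3 CPM against 147 and 140.1 CPM, and Aadat, an aminotransferase of kynurenine and aminoadipate, had 67.1 and 68.9 CPM against 420 and 428 CPM. Csad, an enzyme of taurine synthesis, had a log2 fold change of -2.60 (SE 0.06), and Qdpr, which regenerates the cofactor of aromatic hydroxylases, one of -2.57 (SE 0.07).

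Of the genes of that list called higher, Asns, which makes asparagine, had 15.8 and 15.4 CPM in cisplatin libraries against 4.44 and 4.30 CPM in saline libraries (log2 fold change 1.84, SE 0.13, adjusted p = 2.10e-10). Aldh18a1, which acts early in the synthesis of proline, the amino acid that Prodh degrades, had 7.34 and 9.02 CPM against 3.63 and 3.03 CPM. The histamine-making Hdc, named after its values were seen, was also called higher, at 2.70 and 2.16 CPM against 0.703 and 0.205 CPM. Gpt, Phgdh, Sdsl and Pycrl did not pass the test, with log2 fold changes of 0.23, 0.04, -0.20 and -0.20.

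Markers of the segment that holds most of these enzymes moved in the same direction. All 15 proximal tubule markers were called lower, beside 36.4% of all tested genes, with a median log2 fold change of -2.57 and a range of -4.71 to -0.77. They summed to 18568 and 17948 CPM in cisplatin libraries against 51437 and 49525 CPM in saline libraries. Kap alone had 14781 and 14242 CPM of this against 25836 and 23592 CPM, with the smallest fall of the 15 (-0.77). The sum therefore mostly follows Kap and falls less than the median marker. The 37 members summed to 3288 and 3239 CPM against 12016 and 12368 CPM. Hnf4a, which encodes the factor of the motif searched for in the promoters, had 120.1 and 118.5 CPM against 725 and 693 CPM. The 8 thick limb and distal tubule markers were all called lower (median -1.70, summed 2362 and 2280 CPM against 7580 and 7669 CPM), whereas 6 of 9 collecting duct markers were lower and 3 higher (median -0.77).

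Most tested markers of fibroblasts, podocytes, macrophages, endothelium and neutrophils were called higher, beside 37.2% of all tested genes. All 7 fibroblast and mural markers were called higher (median 1.83, summed 1365 and 1365 CPM in cisplatin libraries against 375 and 388 CPM in saline libraries), as were all 5 podocyte markers (median 0.95). Of 8 macrophage markers, 7 were higher and 1 lower (median 1.37, summed 265 and 279 CPM against 93.6 and 103 CPM), and 5 of 7 endothelial markers were higher and 1 lower (median 0.75). The 7 neutrophil markers summed to 34.5 and 31.9 CPM against 4.17 and 2.91 CPM, with Ly6g at 0 in both saline libraries, and all 6 of those tested were higher. The 6 lymphocyte markers summed to 2.66 and 2.20 CPM against 1.46 and 1.43 CPM. Of the 3 that were tested, 1 was higher and 2 missed the threshold. All 8 tubular injury markers were higher (median 5.24), among them Havcr1 with 166 and 169 CPM against 4.11 and 4.43 CPM. The part of these cell types in the changes of the members was not tested. Of 8 liver markers, 5 were lower and 3 higher, and several of them, such as Cyp2e1, are also made in the kidney. The liver markers summed to 663 and 643 CPM in cisplatin libraries against 2202 and 2180 CPM in saline libraries (median -1.54).

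**Figure D4:**
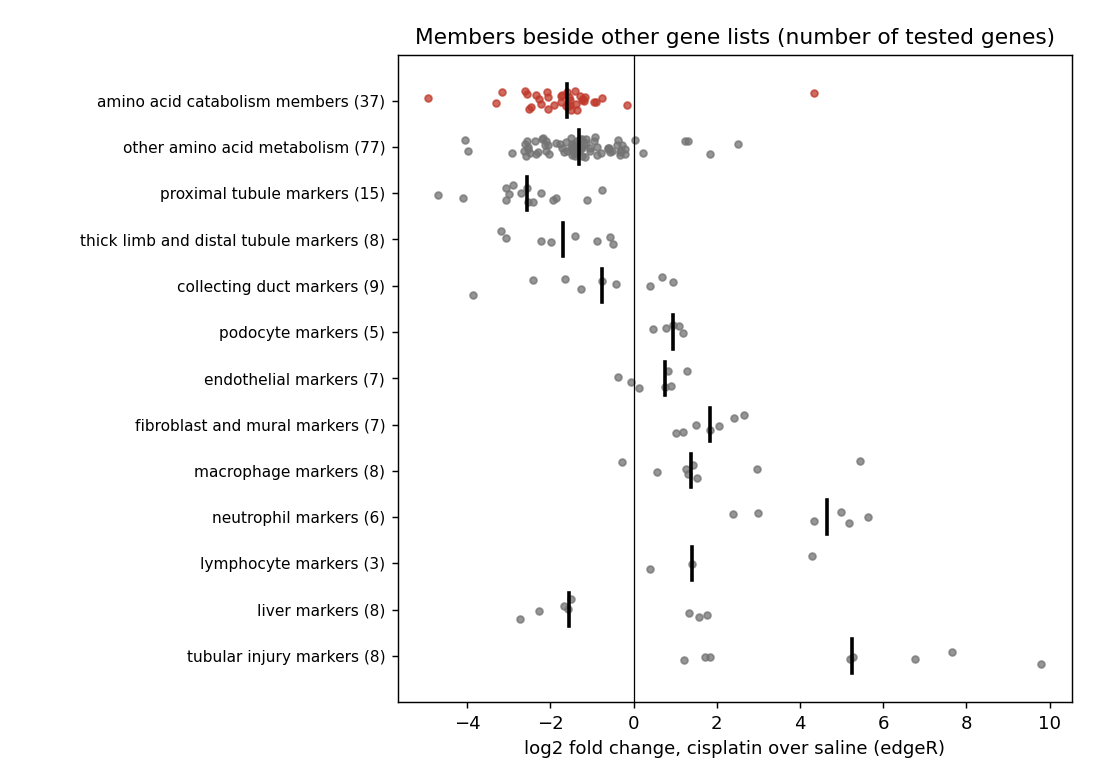
Log2 fold change (cisplatin over saline, edgeR) of every tested gene of the 37 members (red), of the other amino acid metabolism list and of marker lists (grey); black bars are list medians and numbers in brackets count tested genes. The members' median (-1.59) lies between those of the proximal tubule (-2.57) and collecting duct (-0.77) markers, nearer to those of the thick limb and distal tubule (-1.70) and liver (-1.54) markers.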

How the data were processed

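Total RNA of kidney tissue was depleted of ribosomal RNA and sequenced from directional libraries, per the labels' protocols. The authors deposited raw read counts per gene, used for all tests, and FPKM values for 29157 genes, used to compare levels between genes. The build GRCm38 and the tools TopHat2, bcl2fastq and edgeR come from the submitters' processing notes, without versions. How reads were counted, and whether strand was used, is not stated there. Groups came from the sample titles.

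Counts were filtered with filterByExpr, scaled by TMM and tested with the quasi-likelihood F test of edgeR 4.0.16 in R 4.3.3 over all 17419 tested genes, with Benjamini-Hochberg adjustment and a threshold of 0.05. The standard error follows from the log2 fold change and F. Scaling by TMM used factors of 1.15 and 1.12 in cisplatin libraries against 0.861 and 0.901 in saline libraries. A floor of 3 counts equals 0.116 to 0.162 CPM, and floors cover counting error only. Replicates differed beyond sampling noise (chi-square per degree of freedom 11.5 for cisplatin, 36.6 for saline). The p-values and standard errors rest on the spread between these libraries, which edgeR estimates partly from all genes together. They do not measure the spread of a single gene alone.

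Coordinates are from GENCODE M21 on GRCm38, and promoters from RefSeq, build GRCm38.p6. The members and lists were chosen with earlier results of these data known. Named genes were all members and, of the other list, up to 5 deepest falls and 5 largest rises among those called whose mean reached 5 CPM. A result that this rule would name is not reported here. Alternatives used limma 3.58.1 (log2 of FPKM plus 0.1 or 1, genes with a mean of at least 0.1 FPKM), DESeq2 1.42.0 and other scalings and filters. The edgeR steps were tested on simulated data.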

Additional observations from a re-analysis of the deposited data

How the results depend on the processing

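Of 592 combinations of a member with an alternative, 581 kept direction and call, and 33 of the 37 members did so under all 16 alternatives. Among members, Acad8 reversed, with log2 fold changes of 0.20 with library size alone and 0.11 and 0.10 with limma on FPKM plus 0.1 or 1, and it lost its call under upper-quartile scaling, DESeq2, the test against a 2-fold change, and without cisplatin replicate 2 or saline replicate 2. Bckdhb, Mmaa and Sardh lost their calls in the test against a 2-fold change, which by its construction asks for a larger effect and called 4245 genes in all, 32 members lower and, of the other list, 2 higher. Upper-quartile scaling put the members' median at -1.48, library size alone put it at -1.23, and limma on FPKM plus 0.1 or 1 put it at -1.31 or -1.27. The median of all tested genes moved too, and the members' median minus that of all genes was -1.63 both with library size alone and with TMM. A change of scaling moves both medians nearly alike, so that match was largely fixed in advance. Over all settings the difference ran from -1.74, with no filter on low counts, to -1.43, with limma on FPKM plus 1. With library size alone 35 members were lower and 2 higher, the second being Acad8, and over all genes 9110 were higher and 4207 lower, against 6487 and 6333 with TMM. Leaving out 1 library gave 35 to 36 members lower, 1 higher, medians of -1.65 to -1.60, and 11490 to 12504 called genes. With the replicate number as a block, 36 members were lower and 1 higher, with a median of -1.59. Across genes, the deviations between replicates of the groups were not correlated (-0.02). This value cannot decide whether the libraries were handled in pairs by number. The block changed no member's call. Having 2 libraries per group limits the precision, as do the 118 and 133 saline counts of Arg2.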

Other observations

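Grouped by where their products work, a grouping made after the values were seen, the 10 members with cytosolic products had a median log2 fold change of -2.19 and the 26 with mitochondrial products one of -1.53. The cytosolic group is Hpd, Hgd, Fah, Ass1, Asl, Cbs, Cth, Shmt1, Ddc and Miox, and Glyctk was left out because its product is placed in more than 1 compartment. The summed level of the cytosolic group was 1017 and 1056 CPM in cisplatin libraries against 4833 and 5044 CPM in saline libraries, and that of the mitochondrial group was 2249 and 2158 CPM against 7046 and 7188 CPM. The difference between the groupings was not tested.

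Across the 37 members, the log2 fold change was lower where the saline FPKM was higher, with Pearson's r = -0.54 and Spearman's rho = -0.43. Without Arg2 and Gatm, which have the most extreme changes, r was -0.33 over 35 members. The same saline libraries enter both axes, and genes are not independent replicates, so this is a description.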
